A study of Homo sapiens with 9 samples.

Results

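The solute carrier genes expressed in ALL-SIL cells were examined as a set. They are the protein-coding genes whose GENCODE symbol begins with SLC and a digit and whose level averaged at least 1 CPM over the 9 libraries, where CPM is a gene's count over the library's sum of gene counts, scaled up by the same factor in each. The genes SLC2A1, SLC2A3, SLC3A2, SLC7A5 and SLC7A11 were left out by the rule. Of 374 protein-coding genes with such a symbol 369 were eligible, 166 of these reached the threshold and 203 did not, among them 49 without a count in any library. The count tables hold 58096 gene identifiers in all. The level over all libraries chose the members, so levels are given as a description and only differences between labels or replicate numbers are tested. The genes just above the threshold were SLC22A5 at 1.04 CPM, SLC35D2 at 1.06, SLC27A3 at 1.25 and SLC37A2 at 1.62. Just below it were SLC5A10 at 0.951 CPM, SLC6A9 at 0.923, SLC26A4 at 0.861 and SLC2A9 at 0.848.

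Solute carriers are membrane proteins that move amino acids, sugars, nucleosides, metals, inorganic ions and metabolites across the plasma membrane or the membranes of organelles, as uniporters, symporters or exchangers. The families are numbered by sequence relation, and the SLC25 family sits mainly in the inner mitochondrial membrane. In dividing lymphoid cells such carriers bring in amino acids, nucleosides and iron, export lactate, and exchange ADP for ATP across the mitochondrial membrane. The symbol also covers 4 members that are not carriers: SLC9A3R1, a PDZ scaffold protein, SLC2A4RG, a DNA-binding regulator, SLC4A1AP, an adaptor protein, and SLC7A6OS, a gene on the strand opposite SLC7A6. They stay in every count because the rule is by symbol.

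Poly(A) RNA of ALL-SIL, an established T-cell acute lymphoblastic leukaemia line, was sequenced after electroporation with an siRNA, a small double-stranded RNA used to have a chosen transcript cut. The 3 groups are cells given TLX1 siRNA1, TLX1 siRNA2 or the NTC siRNA, with 3 libraries each, numbered as replicates 1 to 3. All groups are the same line in the same medium and all were electroporated, and the sources used here give no dose, harvest time, siRNA sequence or meaning of NTC. Separate cultures are not stated for the replicates, so the spread behind every p-value is that among these libraries and may be technical. In bulk RNA, fewer cells of a kind and less RNA per cell cannot be told apart.

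Libraries held 58305492 to 99524663 gene counts, of which the members took 0.924% to 0.984%. T-lineage markers summed to between 2010 and 2200 CPM, and 11 of 12 reached 1 CPM in at least 1 library. None of the 4 myeloid, 3 erythroid, 3 NK and 3 epithelial markers did so, while 3 of 4 B-cell markers did (summed level 11 to 23.1 CPM). TLX1, the targeted homeobox gene, stood at 179, 168 and 183 CPM in replicates 1 to 3 labelled NTC, at 402, 452 and 401 in those labelled siRNA1 and at 198, 225 and 185 in those labelled siRNA2. It was 2.33-fold higher under the siRNA1 label than under NTC (edgeR adjusted p = 2.03e-10), against what a TLX1 siRNA is meant to do. Below, "under siRNA1" stands for the libraries so labelled, and every direction is that of the label as deposited and says nothing of TLX1 loss.

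The members spanned a wide range of levels, with a median of 30.2 CPM. At least 10 CPM was reached by 134 of them, at least 100 CPM by 24, and 161 were at 1 CPM or more in every library. To compare genes, counts were divided by exon length and scaled to the same total in every library, which gives TPM. The exon length is the union of all annotated exons of a gene. A gene whose transcripts use only part of that union is placed too low. On this scale the 12 highest genes held 47.9% of the members' sum. SLC9A3R1, the scaffold protein that binds the tails of ion transporters, led at 911 TPM (749 to 1010 over the libraries). The ADP/ATP carriers SLC25A5 and SLC25A6 followed at 677 TPM (619 to 720) and 423 TPM (342 to 537), and these near-identical genes can share reads. SLC29A1, the equilibrative nucleoside transporter ENT1, which takes up adenosine and nucleoside drugs, came next at 389 TPM (279 to 476), and its range overlapped that of SLC25A6. The glutamine and neutral amino acid transporters SLC38A2 and SLC38A1 stood at 195 TPM (171 to 244) and 171 TPM (154 to 198), ranges that also overlapped. Below them came the mitochondrial phosphate carrier SLC25A3 (154 TPM), the glycine carrier of haem synthesis SLC25A38 (133 TPM) and SLC25A39 (125 TPM), a carrier linked to mitochondrial glutathione. The place of SLC25A3 depends on the length used: it had 379 CPM over 8896 bases, against 281 CPM over 1500 bases for SLC25A5. SLC39A7, which releases zinc from the endoplasmic reticulum, was at 120 TPM, SLC16A1, the lactate and pyruvate transporter MCT1, at 117 TPM, and SLC35A4, of the nucleotide sugar family, at 112 TPM. Neighbours in this order from SLC25A38 on overlapped in their ranges.

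**Figure D1:**
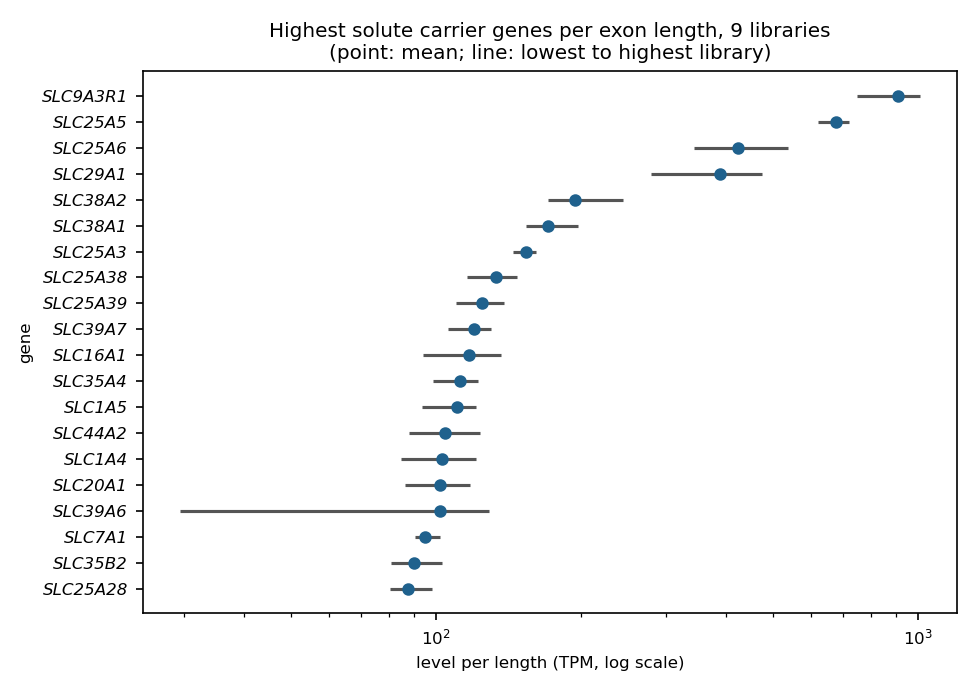
The 20 members with the highest level per exon length, as the mean over 9 libraries (point) and the lowest to highest library (line), in TPM on a log axis. SLC9A3R1 leads at 911 TPM, and SLC39A6 has the longest line of the genes shown.

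By transport class, mitochondrial carriers made the largest sum, 2178 to 2544 TPM over the libraries in 36 genes. The inorganic ion class summed to 1344 to 1448 TPM under the NTC label, 1455 to 1476 under siRNA1 and 1280 to 1452 under siRNA2 in 26 genes, so that siRNA1 was the highest; most of the sum is SLC9A3R1, which is no carrier. Nucleoside and nucleotide sugar carriers, 25 genes, summed to 1046 to 1113 TPM under the NTC label and 875 to 926 under siRNA1. Under siRNA2 the sum was 1032 to 1059 TPM, so that the libraries labelled siRNA1 were the lowest. SLC29A1, the most abundant of these genes, was 1.60-fold lower under siRNA1 than under NTC. The median log2 fold change of the class was 0.027, so the lower sum does not mean that most of its genes were lower. The sums of the 16 carboxylate and organic ion carriers were also lowest under siRNA1, at 216 to 229 TPM. They were 235 to 252 under NTC and 238 to 260 under siRNA2. SLC16A1, at 117 TPM the most abundant of these genes, was 1.24-fold lower under siRNA1 than under NTC. The median log2 fold change of this class was 0.081, so here too the lower sum is not a fall of most genes. The sums of the amino acid class (19 genes) ranged from 936 to 1064 TPM, with overlap between all 3 labels.

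The first comparison asks which carriers differ between the libraries labelled siRNA1 and NTC. SLC29A1, SLC35F3 and SLC23A1 fell most by fold, and SLC39A6 and SLC16A3 rose most. Of the 166 members 22 fell, 7 rose and 137 did not pass at an adjusted p under 0.05 (edgeR quasi-likelihood test with the replicate number as a block, Benjamini-Hochberg adjustment over 18554 genes). Among all genes tested 11.4% passed, 5.48% higher and 5.93% lower, against 17.5% of the members, 4.22% higher and 13.3% lower. Among the 10488 tested protein-coding genes that meet the same threshold of 1 CPM, 15.6% passed, 6.94% higher and 8.67% lower. The members' total share is thus close to that of protein-coding genes past the same threshold, which were not otherwise matched for level. More of the members' share is on the lower side, a difference that was not tested. The median log2 fold change was -0.008 over the members, 0.005 over all genes tested and -0.014 over the protein-coding genes of at least 1 CPM. Only 4 of the 29 called members differed more than 1.5-fold. Without the block 2 members passed (1.28% of all genes), SLC29A1 and SLC35F3. Scaling by library size alone gave 10 higher and 15 lower. With NTC replicate 1 or 3 left out 18 or 16 members passed, with siRNA1 replicate 1 or 2 left out 15 or 17, and with all 3 replicate 1 libraries left out 11. The count was higher in other settings, 43 without siRNA2 replicate 3 and 40 with only the 2 groups compared. Shares over all genes are not given for these settings.

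**Figure D2:**
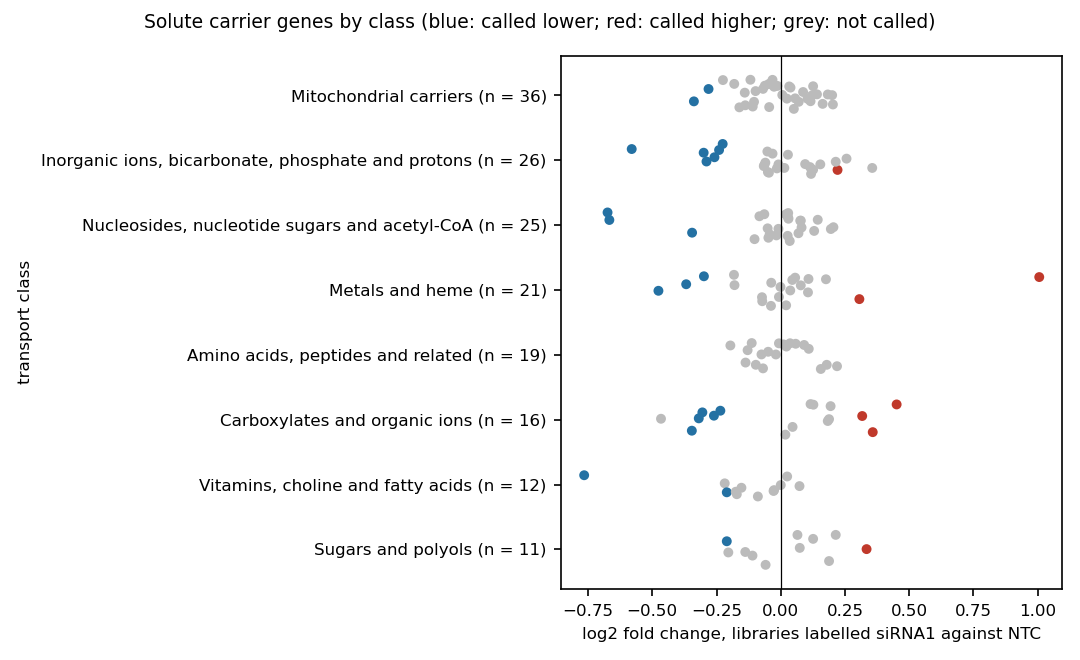
Log2 fold change of each of the 166 members between the libraries labelled siRNA1 and NTC (horizontal axis), by transport class (rows, with the number of genes). Blue points were called lower (22), red points higher (7) and grey points were not called (137). The 19 members of the amino acid class are all grey.

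Among carriers of nucleosides and nucleotide sugars 3 of 25 fell and none rose. For this and the class counts that follow, 5.93% of all genes tested fell and 5.48% rose. Among protein-coding genes of at least 1 CPM 8.67% fell and 6.94% rose. No class was tested against these shares. SLC29A1 (ENSG00000112759.16, chromosome 6 from 44219505 to 44234151, GRCh38) stood at 582, 537 and 571 CPM in replicates 1 to 3 labelled NTC, at 383, 354 and 336 in those labelled siRNA1 and at 542, 507 and 460 in those labelled siRNA2. The 3 siRNA1 libraries were the lowest of all 9, with no overlap with either other label. The gene was 1.60-fold lower under siRNA1 than under NTC (-0.67 on the log2 scale, SE 0.07, edgeR adjusted p = 2.02e-07; 0.00671 without the block). It made up most of the difference in the members' summed level: that sum was 9650 ± 25.1 CPM under NTC and 9382 ± 135 under siRNA1, and without SLC29A1 it was 9087 ± 38.5 and 9025 ± 145 (SD, n = 3 each). SLC35F3 (chromosome 1 from 233904933 to 234324516), a relative of nucleotide sugar carriers that has been linked to thiamine transport, was at 36.6, 48.6 and 35.7 CPM under NTC, 24.2, 28 and 24.3 under siRNA1 and 42.1, 43.8 and 39.2 under siRNA2. Here too the siRNA1 libraries lay below the other 6. The log2 fold change was -0.67 (SE 0.07, edgeR adjusted p = 4.79e-07; 0.024 without the block). SLC35D1, which carries UDP-sugars into the endoplasmic reticulum, went from 41, 46.8 and 49.5 CPM under NTC to 31.9, 35.1 and 42.9 under siRNA1 (log2 fold change -0.34, SE 0.07, edgeR adjusted p = 0.000987), lower in each replicate pair although the groups overlapped.

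**Figure D3:**
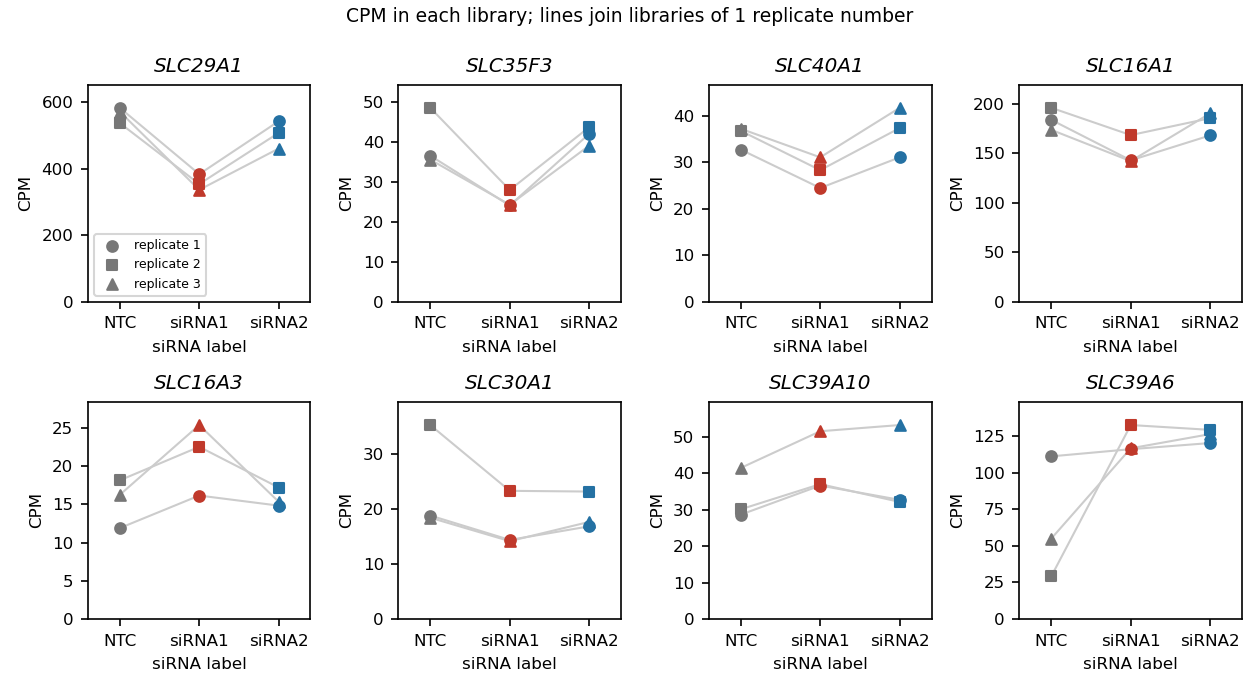
CPM of 8 members in each library, by siRNA label (horizontal axis), with marker shape for the replicate number and grey lines joining libraries of 1 number. For SLC29A1 and SLC35F3 all siRNA1 libraries lie below the others; for SLC39A6 NTC replicates 2 and 3 lie at 29.2 and 55.0 CPM, below the other 7.

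Among 21 metal and heme carriers 3 fell and 2 rose, and the zinc and iron genes among them moved in different ways. SLC30A1, the zinc exporter of the plasma membrane, was at 18.8, 35.3 and 18.4 CPM under NTC and 14.4, 23.3 and 14.2 under siRNA1 (log2 fold change -0.48, SE 0.08, edgeR adjusted p = 0.000278). It was highest in replicate 2 under every label, so the groups overlap while each pair falls. SLC39A10, the zinc importer ZIP10, went the other way, from 28.7, 30.1 and 41.5 CPM under NTC to 36.6, 37 and 51.5 under siRNA1 (log2 fold change 0.31, SE 0.07, edgeR adjusted p = 0.00367). Its replicate 3 was the highest under every label. The call was lost without siRNA1 replicate 1 (edgeR adjusted p = 0.057). SLC40A1, ferroportin, the exporter of iron, stood at 32.8, 36.8 and 37.2 CPM under NTC and at 24.5, 28.3 and 31.1 under siRNA1, without overlap (log2 fold change -0.37, SE 0.07, edgeR adjusted p = 0.000583).

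SLC39A6 (ENSG00000141424.12, chromosome 18 from 36108532 to 36129385), the zinc importer ZIP6, varied strongly within the NTC label. It stood at 111, 29.2 and 55.0 CPM in replicates 1 to 3 labelled NTC, at 116, 133 and 117 under siRNA1 and at 120, 129 and 126 under siRNA2. NTC replicates 2 and 3 were low, NTC replicate 1 was close to the 6 libraries of the other labels, and the NTC label did not overlap with them. The log2 fold change was 1.01 (SE 0.23, edgeR adjusted p = 0.00451) for siRNA1 against NTC and 1.05 (SE 0.23, edgeR adjusted p = 0.0621) for siRNA2 against NTC, and the mean under NTC was 65.1 ± 41.9 CPM against 122 ± 9.34 and 125 ± 4.6 (SD, n = 3 each). The first call held with any 1 library left out (highest adjusted p = 0.0379) but not without the block (adjusted p = 0.357). Apart from SLC39A6 and SLC39A10, none of the other 9 genes of the ZIP family among the members passed.

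Carboxylate and organic ion carriers held the most calls for their number, 5 lower and 3 higher of 16, and 7 of those 8 were in the monocarboxylate family SLC16. SLC16A1, the lactate and pyruvate transporter MCT1, fell from 184, 196 and 174 CPM under NTC to 143, 168 and 142 under siRNA1, without overlap (log2 fold change -0.30, SE 0.07, edgeR adjusted p = 0.0031; 0.0514 without NTC replicate 1). SLC16A3, the lactate exporter MCT4, rose from 11.9, 18.2 and 16.3 CPM to 16.2, 22.6 and 25.4 (log2 fold change 0.45, SE 0.09, edgeR adjusted p = 0.00131). MCT1 and MCT4 thus moved in opposite directions. Per length SLC16A1 was the more abundant, at 117 TPM over all libraries against 7.05 TPM for SLC16A3. The size of that gap depends on the exon lengths used, 5312 and 8995 bases. Before division by length the means were 172 and 17.5 CPM.

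The calls among the other members of the family also split. SLC16A5 rose (log2 fold change 0.36), at 6.37 to 8.51 CPM under NTC and 8.67 to 11.9 under siRNA1. SLC16A10, the aromatic amino acid transporter TAT1, fell (-0.32), as did SLC16A14, an orphan member (-0.35), SLC16A6 (-0.26) and SLC16A7, the transporter MCT2 (-0.23). SLC17A5, the lysosomal sialic acid exporter sialin, was the call outside the family and rose from 11.7 to 13.3 CPM under NTC to 13.3 to 17.4 under siRNA1 (log2 fold change 0.32). These calls were less stable. SLC16A14 lost its call in 8 of 9 leave-one-out fits (highest edgeR adjusted p = 0.191 without siRNA1 replicate 3). SLC16A7 lost it in 5 (0.256 without siRNA1 replicate 3), SLC16A6 in 4 (0.322 without NTC replicate 1) and SLC16A10 in 4 (0.148 without siRNA1 replicate 1). SLC16A5 and SLC17A5 lost it in 3 each (highest 0.127 without siRNA1 replicate 3 and 0.105 without siRNA1 replicate 1).

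Of 26 carriers of inorganic ions, bicarbonate, phosphate and protons 6 fell and 1 rose. SLC4A8, a sodium-driven chloride and bicarbonate exchanger, stood at 5.91, 4.19 and 4.05 CPM under NTC and 4.55, 2.4 and 2.82 under siRNA1, lower in each pair with overlap between the groups (log2 fold change -0.58, SE 0.11, edgeR adjusted p = 0.000771). Its level under siRNA2 was 5.09, 2.69 and 2.92 CPM (-0.45 against NTC on the log2 scale, edgeR adjusted p = 0.11). SLC8B1, the mitochondrial sodium and calcium exchanger, fell from 50.04, 44.5 and 47.6 to 39.6, 35.7 and 41.3 CPM (log2 fold change -0.30, SE 0.07, edgeR adjusted p = 0.00589; 0.1 without siRNA1 replicate 1). The remaining 4 lower genes fell by between 0.23 and 0.29 on the log2 scale.

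Mitochondrial carriers, the largest class, moved little: 2 of 36 fell, none rose, and log2 fold changes lay between -0.34 and 0.20. The ADP/ATP carrier SLC25A6 was at 225, 286 and 316 CPM under NTC and 215, 209 and 234 under siRNA1, with overlap (log2 fold change -0.34, SE 0.09, edgeR adjusted p = 0.0111). The call was lost without NTC replicate 3 (0.158) and without siRNA1 replicate 2 (0.0801). Its paralogue SLC25A5 stood at 304, 282 and 294 CPM against 297, 262 and 272 and did not pass (log2 fold change -0.10, edgeR adjusted p = 0.353). SLC25A3 stood at 360 to 396 CPM over all 9 libraries (log2 fold change 0.03, edgeR adjusted p = 0.808).

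The amino acid class had no call: 0 of 19 members passed, with log2 fold changes between -0.20 and 0.22, and they include abundant genes. The class counts SLC7A6OS, which is no carrier, and lacks SLC3A2, SLC7A5 and SLC7A11, which the rule left out. It also lacks the aromatic amino acid transporter SLC16A10, called lower above, which its family number places among carboxylate carriers. SLC38A1 ranged from 458 to 507 CPM under NTC and 432 to 461 under siRNA1, with a log2 fold change of -0.14 (SE 0.06, edgeR adjusted p = 0.181). SLC38A2 ranged from 343 to 360 and 319 to 374 CPM. SLC6A6, the taurine transporter, had the smallest p of the class (log2 fold change 0.18, SE 0.06, edgeR adjusted p = 0.0777). That these genes missed the threshold does not show that they did not differ.

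Classes follow the family number, and by it sugar and polyol carriers held 1 call each way among 11, and vitamin, choline and fatty acid carriers 2 lower among 12. The lower call of the sugar class was SLC5A6, named here after its values were seen, which is known as a transporter of the vitamins biotin and pantothenate and not of sugars (log2 fold change -0.21). It lost the call in 5 of 9 leave-one-out fits (highest edgeR adjusted p = 0.347 without siRNA1 replicate 1). SLC2A11, the hexose transporter GLUT11, rose from 7.75, 8.4 and 7.13 CPM under NTC to 9.38, 9.32 and 11.1 under siRNA1, without overlap (log2 fold change 0.33, SE 0.10, edgeR adjusted p = 0.0261). That call was lost in 4 of 9 leave-one-out fits (highest 0.239 without siRNA1 replicate 3). SLC23A1, a sodium-coupled vitamin C transporter, was at 3.89, 8.01 and 6.64 CPM under NTC and 2.77, 4.02 and 4.09 under siRNA1 (log2 fold change -0.77, SE 0.11, edgeR adjusted p = 4.72e-05). Replicate 1 was lowest under each label, so the groups overlap, and without the block the adjusted p was 0.18. SLC44A2, a choline transporter-like protein and the most abundant of the vitamin, choline and fatty acid class per length (104 TPM), did not pass (log2 fold change 0.03, edgeR adjusted p = 0.862).

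The second comparison is between the labels siRNA2 and NTC. None of the 166 members passed with the block, where 0.151% of all genes and 0.267% of protein-coding genes of at least 1 CPM did, and none passed without it. At an unadjusted p under 0.05 there were 19 members with the block (11.4% of the members, against 8.37% of all genes) and 3 without. DESeq2 called none and limma-voom called SLC39A6. That gene had the smallest adjusted p here, 0.0621, and passed in several alternatives. The median absolute log2 fold change of the members was 0.06, and the median SE was 0.07. For the 2 genes that fell most significantly under siRNA1 the log2 fold changes of siRNA2 against NTC were -0.18 (SE 0.07, edgeR adjusted p = 0.397) for SLC29A1 and 0.05 (SE 0.07, edgeR adjusted p = 0.903) for SLC35F3.

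**Figure D4:**
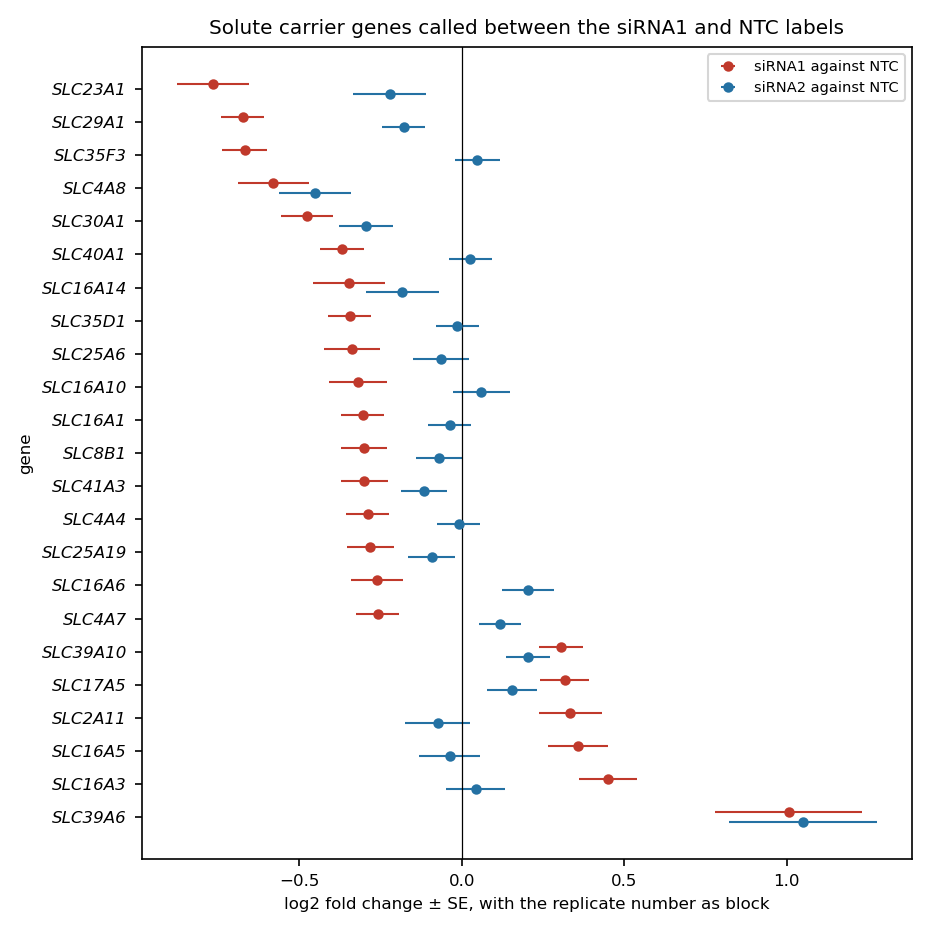
Log2 fold change with its SE for 23 of the 29 members called between the libraries labelled siRNA1 and NTC, those past 0.25 on the log2 scale (red), beside the value for siRNA2 against NTC (blue); both use the same NTC libraries. The red and blue points of SLC39A6 lie at 1.01 and 1.05, whereas those of SLC35F3 lie at -0.67 and 0.05.

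The third comparison sets the labels siRNA1 and siRNA2 against each other, and so tests directly whether the libraries of the 2 labels differ. Of 166 members 18 were lower under siRNA1, 8 were higher and 140 did not pass, that is 15.7% called (4.82% higher, 10.8% lower). Among all genes 10.6% were called (5.29% higher, 5.27% lower), and among protein-coding genes of at least 1 CPM 14.9% (6.95% higher, 7.97% lower). SLC35F3 differed by -0.72 as a log2 value (SE 0.07, edgeR adjusted p = 2.08e-07) and SLC29A1 by -0.50 (SE 0.07, edgeR adjusted p = 1.48e-05). They were lower here too and were the 2 members that passed without the block, where 1.08% of all genes did. SLC23A1 (-0.54), SLC16A6 (-0.46), SLC40A1 (-0.40) and SLC16A7 (-0.38) were the next lower by log2 fold change. SLC2A11 (0.41), SLC16A3 (0.41) and SLC16A5 (0.39) were higher. So were SLC2A4RG (0.33), SLC25A1, the mitochondrial citrate carrier (0.29), and the nucleoside transporter SLC29A2, or ENT2 (0.28), which did not pass against NTC. Calls for SLC29A2 and SLC25A1 were lost in 5 and 3 of 9 leave-one-out fits (highest edgeR adjusted p = 0.13 and 0.0848, both without siRNA1 replicate 1). SLC2A11 lost its call in 3 (highest 0.108 without siRNA1 replicate 3), and SLC2A4RG (0.118 without siRNA1 replicate 1), SLC16A3 and SLC16A5 (0.0709 and 0.0765 without siRNA1 replicate 3) in 2 each. SLC39A6 (-0.04, edgeR adjusted p = 0.936), SLC30A1 (-0.18, edgeR adjusted p = 0.179) and SLC4A8 (-0.13, edgeR adjusted p = 0.545) did not pass. The comparison shares its siRNA1 libraries with the first, and 17 members were called in both, 14 of them lower and 3 higher each time. Shared libraries favour calls in the same direction. The overlap was not counted over all genes, so 17 cannot be called many or few. With siRNA1 replicate 1 or 3 left out 13 or 12 members passed, and with all 3 replicate 1 libraries left out 13. With only the 2 groups compared 33 passed, and with NTC replicate 2 left out 32.

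More members passed for the replicate number than between any pair of labels. The 2 replicate terms of the same fit passed together for 85 members, 51.2%, where 35.8% of all genes and 44.8% of protein-coding genes of at least 1 CPM did. What a replicate number marks is not given in the labels, and a culture, a day or a library batch cannot be told apart. SLC14A1, a urea transporter, was at 0.908, 1.47 and 1.10 CPM in replicate 1 under the labels NTC, siRNA1 and siRNA2, at 2.38, 2.49 and 1.67 in replicate 2 and at 3.10, 4.35 and 3.50 in replicate 3 (edgeR adjusted p = 1.47e-07). Replicates 1 to 3 did not overlap. SLC30A1, given above, was higher in each replicate 2 library than in any other library of its label (edgeR adjusted p = 3.39e-07). SLC25A37, the mitochondrial iron importer mitoferrin 1, stood at 112, 97.8 and 116 CPM in replicate 1 against 72.1 to 84.5 in the other 6 libraries (edgeR adjusted p = 2.63e-06), with no overlap. For SLC39A10 the replicate 3 libraries, at 41.5, 51.5 and 53.2 CPM, were above the other 6, at 28.7 to 37 (edgeR adjusted p = 2.89e-06). By class, 13 of 16 carboxylate and organic ion carriers and 12 of 19 amino acid carriers passed, against 9 of 21 metal and heme carriers, 15 of 36 mitochondrial carriers and 10 of 25 nucleoside and nucleotide sugar carriers.

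**Figure D5:**
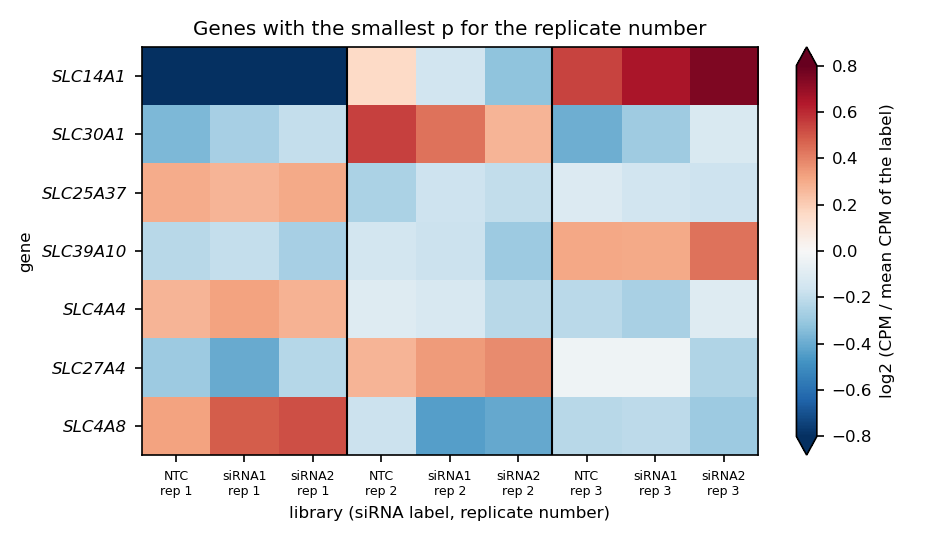
Log2 ratio of each library's CPM to the mean of its label for the 7 members with the smallest p for the replicate number (rows); libraries are grouped by replicate number (columns, black lines between numbers). SLC14A1 is low in the 3 replicate 1 libraries and high in the 3 replicate 3 libraries, and SLC30A1 is high in the 3 replicate 2 libraries.

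Related carriers that bear other symbols were read beside the members: carriers of the same folds, the MCT chaperones and the subunits of the sodium pump. Of 48 listed 45 were tested, and under siRNA1 against NTC 5 fell and none rose (11.4% of all genes passed). MFSD14A, a transporter-like protein of the major facilitator fold, fell by 0.65 on the log2 scale (SE 0.06, edgeR adjusted p = 1.77e-07; 0.00233 without the block). ATP1B1, a beta chain of the sodium pump, fell by 0.63 (SE 0.13) from 2.77 to 1.81 CPM. XPR1, the phosphate exporter, fell by 0.59 (SE 0.07, edgeR adjusted p = 1.34e-06; 0.00428 without the block), at 37.1 CPM under NTC, 24.9 under siRNA1 and 39.2 under siRNA2 as group means. Between siRNA2 and NTC 0 of the 45 passed, where 0.151% of all genes did. Between siRNA1 and siRNA2, where 5.27% of all genes were lower and 5.29% higher, 6 of the 45 were lower under siRNA1 and 3 higher. The higher ones, named after their values were seen, were UCP2 (log2 fold change 0.34), FLVCR2 (0.39) and NIPAL3 (0.26).

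An earlier search of these libraries had found the word GCAGTAC in many 3′ UTRs of genes lower under siRNA1, so the members' 3′ UTRs were read for it; the word comes from the same data and its counts test nothing. The longest annotated 3′ UTR of each gene was searched on the sense strand. The word stood in 625 of 12270 tested genes searched (5.09%) and in 177 of the 941 called lower (18.8%). Among the 166 members 6 held it (3.61%), of which 1 was among the 22 called lower, 0 among the 7 called higher and 5 among the 137 not called. The sites are shown because they are all of the members' matches, 5′ to 3′ as transcript sequence on GRCh38 (GENCODE 29), with the word in capitals.
SLC35D1: tgaccagaGCAGTACagcaactt
SLC33A1: ttaaatggGCAGTACcataattt
SLC5A3: ctttttggGCAGTACcatacata
SLC25A4: gagaacagGCAGTACttccctca
SLC24A1: agaaaagtGCAGTACtacttcca
SLC25A53: ccccttccGCAGTACctcaccct
The SLC35D1 site lies at chr1:67001846-67001868 on the minus strand, 2480 bases into a 3′ UTR of 5008. Those of SLC33A1 and SLC25A53 lie at chr3:155827248-155827270 and chrX:104101173-104101195 on the minus strand. Those of SLC5A3, SLC25A4 and SLC24A1 lie at chr21:34102556-34102578, chr4:185149566-185149588 and chr15:65655408-65655430 on the plus strand. SLC35D1 is the called member among them (log2 fold change -0.34). The others stood at -0.08 for SLC33A1, the acetyl-CoA transporter of the endoplasmic reticulum, -0.06 for SLC5A3, the sodium and myo-inositol transporter, -0.14 for SLC25A4, an ADP/ATP carrier, -0.05 for SLC24A1 and 0.18 for SLC25A53, and none of them passed (edgeR adjusted p = 0.283 to 0.734). SLC29A1 and SLC35F3, the members with the smallest p, did not hold the word in the 3′ UTR searched. Among the related carriers called lower under siRNA1 than under NTC, XPR1 held it 2 times and MFSD14A and ATP1B1 1 time each. LETM1 and SFXN2, also called lower and named after their values were seen, held it 0 times. A link between the word and these levels was not tested.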

How the data were processed

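The deposited files hold raw counts of reads for each gene in each library, whole and unscaled, as their values show. Libraries came from a poly(A) mRNA kit that does not mark strand, per the labels' protocols, and reads were set on GRCh38, per the submitters' processing notes. What the authors used as aligner, counter and annotation is not given in the sources used here, and of the 3 count columns that without strand was read. The 4 summary lines were left out, and 75.5% to 77.6% of reads fell in genes. GENCODE 29 gave symbols and exon lengths for 57447 of 58096 identifiers; the others held 0.0317% of counts. CPM is the count over the sum of gene counts. Exons of 88 members overlap another gene's, in 14 by over 20% of their length, and counts without strand cannot tell such genes apart; paralogues are uncertain too.

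Genes were tested with edgeR 4.0.16 (R 4.3.3): with TMM normalization (factors 0.975 to 1.04), genes kept by filterByExpr at a minimum count of 10 and total of 15, and 1 quasi-likelihood fit of 9 libraries with siRNA label and replicate number. All 166 members were kept. The SE is the size of the log2 fold change divided by the root of F. The code was tested on simulated data. Replicate numbers paired the libraries: deviations from the label means correlated at 0.383 to 0.623 in the 9 same-numbered pairs and at -0.445 to 0.069 in others. Replicates differed beyond counting noise (chi-square per degree of freedom 36.0 to 60.7), so none is 1 library deposited again; repeat preparations of 1 culture cannot be told apart from separate cultures. Alternatives used RLE factors, library size alone, other filters, DESeq2 1.42.0, limma-voom (limma 3.58.1), no block, only the groups compared, and left-out libraries. Members and lists were chosen with earlier results of these data known. Named genes were, by rule, up to 12 called each way by fold change for siRNA1 against NTC, 8 for siRNA2 against NTC and 6 between the TLX1 labels, the 12 highest per length, in each class the highest and the one with the smallest p, 4 each side of the threshold, and 4 with the smallest p for the replicate number. Up to 3 related carriers each way were named by fold change. 1 named gene is not reported here. The genes with a word site were named because they hold it.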

Additional observations from a re-analysis of the deposited data

How the results depend on the processing

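Most calls rest on the replicate number as a block. With no replicate block 2 members passed for siRNA1 against NTC in place of 29, 2 between the TLX1 labels in place of 26, and 35 of the 39 calls of named genes were lost; no named call turned its direction in any alternative. For siRNA2 against NTC, where 0 passed, 1 passed with RLE factors, 2 with no filter beyond 1 count, 1 by limma-voom and 1 with only the 2 groups compared, in each case SLC39A6, joined by SLC4A8 with no filter. With 1 library or the 3 libraries of 1 number left out the counts ranged from 11 to 43 for siRNA1 against NTC, from 0 to 2 for siRNA2 against NTC, from 12 to 32 between the TLX1 labels and from 59 to 92 for the replicate number. Of the 29 and 26 calls 9 and 8 held with any 1 library left out. RLE factors kept 29 of the 29 calls, DESeq2 26, limma-voom 26 and library size alone 22. The number of members was 177 at 0.5 CPM, 158 at 2 CPM and 161 at 1 CPM in every library. Depth limits the members near the threshold: for siRNA1 against NTC the SE was 0.15 for SLC35D2, 0.18 for SLC22A5 and 0.19 for SLC27A3, against a median of 0.07.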
